A study of Mus musculus with 70 samples.

Results

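Transcripts of 10 integrin subunit genes were followed through the bone marrow progenitors of innate lymphoid cells (ILCs). The 10 genes were chosen by name, with no measured value in the rule but with earlier results of these data known. They were Itga4, Itgb7, Itgb1, Itgae, Itgal, Itgb2, Itgb3, Itga6, Itgav and Itga2b, out of 27179 genes in the count tables. All 10 passed the filter on low counts, among 10972 genes tested. Pools of 100 cells were sorted from mouse bone marrow and profiled by CEL-seq, in which poly(A) RNA is copied by in vitro transcription and sequenced from its 3′ side. The TCF7-/- groups held 5 CLP, 4 CILP and 2 ILC2P libraries, the Id2-/- groups held 2 CLP, 2 CILP and 1 ILCP library, and the wild-type (WT) groups held 8 libraries of CLP, 5 of α4β7 CLP, 7 of CILP, 3 of ILCP and 8 of ILC2P. CLP, the common lymphoid progenitor, is the stage before ILC commitment; CILP is the common progenitor of the ILC branch and ILC2P the progenitor of group 2 ILCs. The labels do not define ILCP further, give no age or sex, and do not say which libraries came from the same mouse, so p-values measure the spread between libraries, which may be technical. α4β7 CLP were sorted as CLP that carry the α4β7 integrin on their surface, so the levels of Itga4 and Itgb7 in that population describe cells chosen for the protein.

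Integrins are surface receptors made of 1 α and 1 β chain that bind matrix proteins or partner receptors on other cells. The α4 chain (Itga4) pairs with β1 (Itgb1), which makes the receptor for VCAM-1 used in bone marrow retention, or with β7 (Itgb7), which makes the receptor for MAdCAM-1 used in homing to the gut. β7 also pairs with αE (Itgae), the CD103 chain that binds E-cadherin on epithelium. αL (Itgal) and β2 (Itgb2) form LFA-1, the leukocyte receptor for ICAM proteins. β3 (Itgb3) pairs with αIIb (Itga2b, CD41), the fibrinogen receptor of platelets and an early haematopoietic marker, or with αv (Itgav), the vitronectin receptor. α6 (Itga6) pairs with β1 to bind laminin. On GRCm38.p6, by RefSeq, the genes lie at chr2:79255426-79333114 (Itga4), chr15:102215994-102233405 (Itgb7), chr8:128685654-128733579 (Itgb1), chr11:73090505-73147449 (Itgae), chr7:127296139-127335137 (Itgal), chr10:77530329-77565708 (Itgb2), chr11:104608000-104670476 (Itgb3), chr2:71786886-71858427 (Itga6), chr2:83722303-83806917 (Itgav) and chr11:102453297-102469883 (Itga2b). TCF-1, the product of Tcf7, and ID2 are regulators required for ILC development.

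The 250 bases upstream of the annotated start sites of 4 members that were called below are shown because they are the sequence beside which their transcript levels can be read. They are RefSeq sequence of GRCm38.p6, written 5′ to 3′ on the gene's strand, with matches to 4 short motifs in capitals. The motifs were searched on both strands and 5 of the 10 members had a window.
Itga4, chr2:79255176-79255425, plus strand: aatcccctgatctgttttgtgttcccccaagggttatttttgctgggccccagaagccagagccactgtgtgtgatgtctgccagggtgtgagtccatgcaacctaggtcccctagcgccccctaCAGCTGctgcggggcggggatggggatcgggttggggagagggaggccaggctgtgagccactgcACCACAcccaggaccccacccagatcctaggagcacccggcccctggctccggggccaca
Itgb7, chr15:102231936-102232185, minus strand: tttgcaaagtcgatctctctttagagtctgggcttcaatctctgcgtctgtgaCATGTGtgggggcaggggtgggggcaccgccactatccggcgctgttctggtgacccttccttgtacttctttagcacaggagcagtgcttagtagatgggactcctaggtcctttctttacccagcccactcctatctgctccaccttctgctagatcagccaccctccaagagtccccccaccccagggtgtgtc
Itgb1, chr8:128685404-128685653, plus strand: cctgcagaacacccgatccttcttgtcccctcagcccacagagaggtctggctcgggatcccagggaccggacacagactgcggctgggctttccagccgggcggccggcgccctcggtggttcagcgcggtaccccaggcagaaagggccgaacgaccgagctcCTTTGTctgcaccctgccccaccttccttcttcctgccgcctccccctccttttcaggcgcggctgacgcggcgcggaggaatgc
Itga2b, chr11:102469884-102470133, minus strand: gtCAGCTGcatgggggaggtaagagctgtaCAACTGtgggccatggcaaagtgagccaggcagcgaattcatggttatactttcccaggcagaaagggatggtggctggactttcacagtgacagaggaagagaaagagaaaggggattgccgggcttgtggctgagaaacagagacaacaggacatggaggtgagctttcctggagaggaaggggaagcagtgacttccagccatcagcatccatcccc
The capitals mark an E box (CANNTG) at -125 and a RUNX core (TGTGGT, found on the other strand) at -60 of Itga4, an E box at -197 of Itgb7, a TCF/LEF core (CTTTGT, with CTTTGA as its other form) at -85 of Itgb1, and E boxes at -248 and -220 of Itga2b. Positions count from the start site to the match's first base. The start site used for Itgb7 lies inside the gene's widest annotated extent. Of all 32851 windows of this length, 66.2% held an E box, 27.6% a TCF/LEF core, 14.0% the RUNX core and 16.6% a GATA core (AGATAA or TGATAA), which none of these 4 windows held. A match is a description of the letters and not a measured site.

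Total gene counts ranged from 19322 to 624668 (median 134985) over the 47 libraries used. The libraries came in 2 batches of 22 and 25, with every Id2-/- library in batch 1 and both TCF7-/- ILC2P libraries in batch 2. Some defining markers followed the labels in the WT groups and others did not. Il7r, among the CLP markers, had medians of 777.5 CPM in CLP, 2566 in ILCP and 1957 in ILC2P. Gata3, among the CILP markers, had medians of 1923 CPM in CILP, 2859 in ILCP and 2588 in ILC2P. Id2, also among them, had medians of 674.8 CPM in CILP and 819.7 in ILC2P. Flt3, Zbtb16 and Il1rl1 were closer to the labels. Flt3 was counted in 8 of 8 WT CLP, 5 of 5 α4β7 CLP, 1 of 7 CILP, 1 of 3 ILCP and 0 of 8 ILC2P libraries. Zbtb16 lay between 185.9 and 524.5 CPM in WT CILP and between 0 and 103.7 CPM in WT ILCP. Il1rl1, the IL-33 receptor of ILC2, lay between 296.3 and 1708 CPM in WT ILCP and between 266.8 and 1707 CPM in WT ILC2P. Il1rl1 therefore did not tell ILCP from ILC2P. Tcf7 lay between 0 and 63.4 CPM in TCF7-/- CILP, against 166.2 to 779.2 CPM in WT CILP, and Id2 lay at 27.1 and 116.4 CPM in Id2-/- CILP, against 79.6 to 2286 CPM in WT CILP, so that 1 Id2-/- library lay inside the WT range. In CLP Tcf7 ran against the label, with counts in 3 of 5 TCF7-/- libraries (9 counts, up to 26.8 CPM), against 1 of 8 WT libraries (1 count, 8.17 CPM), and Id2 was at 0 in both Id2-/- CLP libraries, against counts in 2 of 8 WT CLP libraries. In ILC2P Tcf7 held 0 and 53.4 CPM in TCF7-/- libraries, against 0 to 61.8 CPM in WT libraries, and Id2 held 130.6 CPM in the Id2-/- ILCP library, against 12.1 to 1228 CPM in WT ILCP. Except for Tcf7 in CILP, the targeted gene did not tell knockout from WT libraries apart. The deleted parts of both genes are not stated in the labels, and tags at the 3′ side may lie outside them, so this check is weak. Markers of the sorted population lay below the WT range in knockout CILP and Id2-/- ILCP. The 7 CILP markers, a list that holds Tcf7 and Id2 themselves, summed to 529.1 and 606.7 CPM in Id2-/- CILP and 619.9 to 3370 CPM in TCF7-/- CILP, against 3879 to 6314 CPM in WT CILP, and Il1rl1 held 18.6 CPM in the Id2-/- ILCP library, against 296.3 to 1708 CPM in WT ILCP. Several knockout libraries stood apart by markers of other cells: B and plasma cell markers summed to 411200 CPM in TCF7-/- ILC2P replicate 1, against 37.2 to 2320 CPM in WT ILC2P, and myeloid markers to 21690 CPM there. Erythroid markers summed to 30750 CPM in TCF7-/- CILP replicate 4 and 11520 CPM in replicate 1, and myeloid markers to 10280 and 9778 CPM in the same libraries. Id2-/- ILCP held 18670 CPM of erythroid and 16500 CPM of myeloid markers, and WT ILCP replicate 1 held 16290 CPM of erythroid markers. In 12 control wells the members had 0 counts except Itgb1 (6), Itgb2 (5), Itga4 (1) and Itgb3 (1).

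Across the 5 WT populations, 6 of the 10 subunits differed somewhere, with edgeR's quasi-likelihood adjusted p of 6.02e-06 for Itgb3, 1.55e-05 for Itga2b, 0.00562 for Itga4, 0.0103 for Itgb7, 0.0204 for Itgb1 and 0.0212 for Itgae. The background was 18.1% of all genes tested. Itgal, Itgb2, Itga6 and Itgav were not called. In each single batch 3 of the 10 were called: Itga4, Itgb1 and Itga2b in batch 1, and Itgb7, Itgb3 and Itga2b in batch 2. Values below are CPM, each gene's counts scaled to a common library total after TMM, which compare 1 gene between groups and not genes with each other. In these pooled cells, fewer cells that express a gene and less RNA per cell cannot be told apart.

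**Figure D1:**
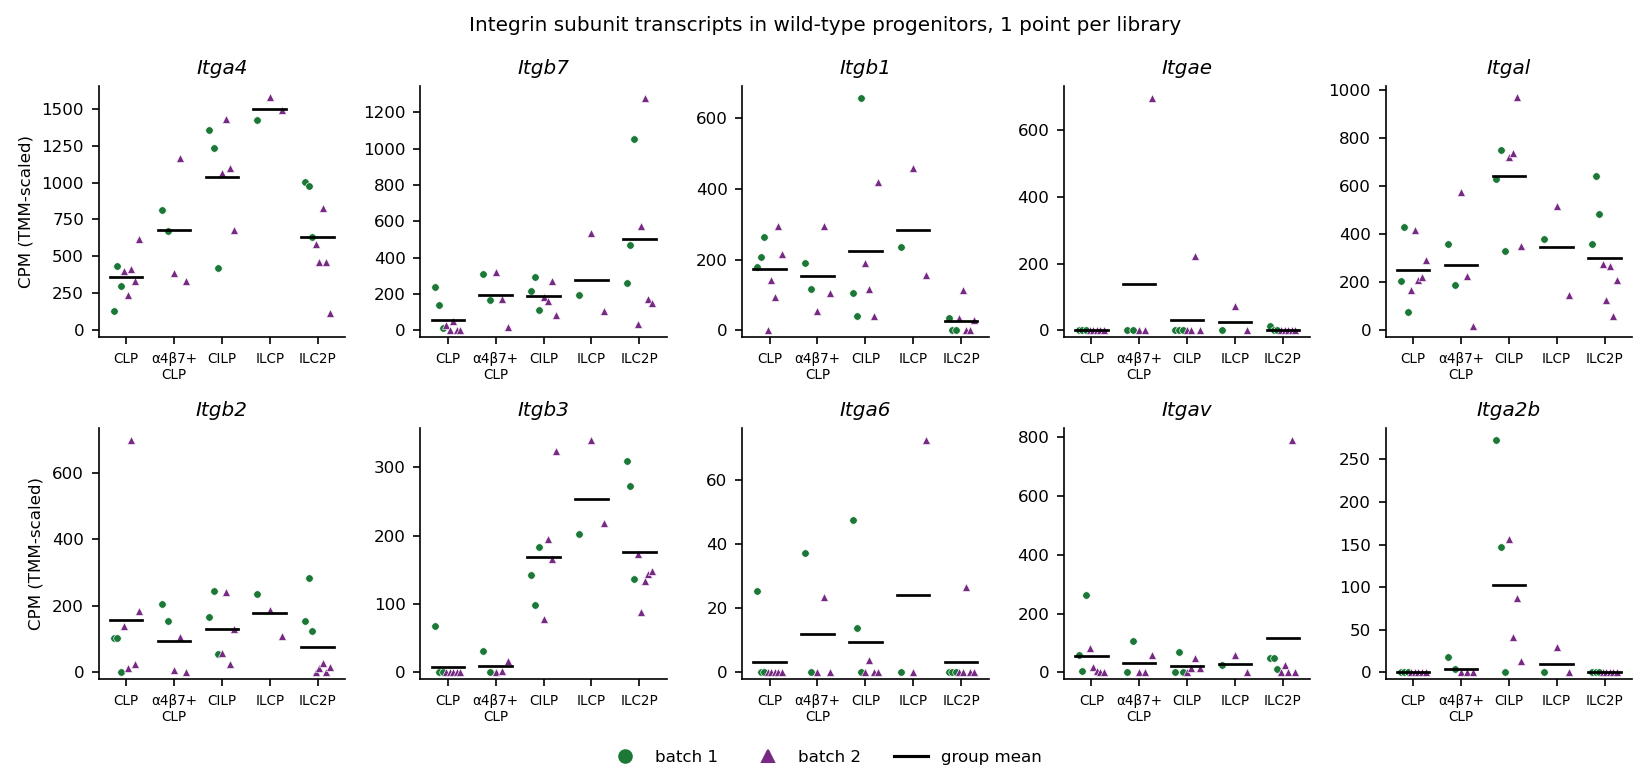
CPM of each subunit (vertical axes, linear, each with its own range) in the 31 WT libraries. Populations are shown in the order CLP, α4β7 CLP, CILP, ILCP and ILC2P, which for ILCP is an order of display. Batch 1 is shown as circles, batch 2 as triangles and the group mean as a line. Itgb3 is between 0 and 67.9 CPM in CLP and α4β7 CLP and between 78.1 and 340.7 CPM in CILP, ILCP and ILC2P. Itga2b has its highest mean in CILP (102.7 CPM), and Itgb1 is lowest in ILC2P (26.6 CPM).

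Itga4 had counts in all 31 WT libraries, and its mean level was 358 ± 147 CPM in CLP (n = 8), 676 ± 338 in α4β7 CLP (n = 5), 1040 ± 366 in CILP (n = 7), 1497 ± 79.3 in ILCP (n = 3) and 633 ± 297 in ILC2P (n = 8; SD throughout). CILP libraries held 420.7, 1095 and 1433 CPM (lowest, median, highest), against 127.3, 366.8 and 618.6 CPM in CLP. The 2 ranges overlapped through 1 CILP library, replicate 7, at 420.7 CPM. Itga4 rose in CILP over CLP by 1.53 ± 0.40 on the log2 scale (SE; edgeR adjusted p = 0.0129). In batch 2 alone the step was no longer called (adjusted p = 0.282), with means of 1068 CPM in CILP and 401.3 CPM in CLP, while in batch 1 they were 1002 and 286.1 CPM. The 3 ILCP libraries held 1580, 1490 and 1422 CPM, above all but 1 of the 7 CILP libraries, and ILCP against CILP was not called (adjusted p = 0.779). The ILC2P level, 118.6 to 1001 CPM, was not called against CILP (log2 difference -0.73, adjusted p = 0.28) or against CLP (0.80, adjusted p = 0.173); DESeq2 called the second (1.17, adjusted p = 0.00701).

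Itgb7, the gut-homing partner of α4, had its highest mean in ILC2P: 59.2 ± 86.2 CPM in CLP, 196 ± 124 in α4β7 CLP, 188 ± 78.1 in CILP, 279 ± 225 in ILCP and 500 ± 452 in ILC2P. ILC2P libraries held 34.5, 366.1 and 1280 CPM (lowest, median, highest), against 0, 20.8 and 237.5 CPM in CLP, where 3 of 8 libraries had no count. The ranges overlapped, and the ILC2P libraries spread over more than an order of magnitude. Itgb7 rose in ILC2P over CLP by 3.32 ± 0.75 on the log2 scale (adjusted p = 0.00148), and it was called in each batch alone, with log2 differences of 2.11 in batch 1 (adjusted p = 0.048) and 4.62 in batch 2 (adjusted p = 0.00776). The CLP means were 129.6 CPM in batch 1 and 16.9 CPM in batch 2. CILP against CLP was not called (log2 difference 1.91 ± 0.73, adjusted p = 0.127); without CLP replicate 6, the CLP library with the highest level, it was 2.48 (adjusted p = 0.042).

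Itgb1, the bone marrow partner of α4, had its lowest mean in ILC2P. It was 175 ± 95.2 CPM in CLP, 153 ± 93.5 in α4β7 CLP, 225 ± 231 in CILP, 284 ± 157 in ILCP and 26.6 ± 38.6 in ILC2P. ILC2P libraries held 0, 14.8 and 112.8 CPM (lowest, median, highest), against 39.7, 115.7 and 658.4 CPM in CILP and 0, 192.9 and 294.0 CPM in CLP. In ILC2P 4 of 8 libraries had no Itgb1 count, and 15 counts were found over the whole group. Itgb1 fell in ILC2P, with log2 differences of -2.96 ± 0.77 against CILP (adjusted p = 0.014) and -2.62 ± 0.76 against CLP (adjusted p = 0.0143). The median of all genes tested was -0.553 and -0.431 in the same comparisons. The call against CILP rested on CILP replicate 7, the library with 658.4 CPM: without it the difference was -2.42 (adjusted p = 0.051), and without ILC2P replicate 2, the highest of that group, it was -3.95 (adjusted p = 0.00253). In batch 2 alone neither was called (adjusted p = 0.253 against CILP and 0.263 against CLP), while batch 1 gave -4.40 and -4.11 (adjusted p = 0.00261 and 0.00266). Against ILCP the log2 difference was -3.34 ± 0.87 at an adjusted p of 0.047, a call that was lost in 8 of 9 other settings and that is given as a value only.

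Because β7 and β1 both pair with α4, the share of Itgb7 among the summed Itgb7 and Itgb1 counts was taken in each library. Its median was 20.4% in CLP (range 0 to 100), 58.9% in α4β7 CLP (13.3 to 85.5), 57.9% in CILP (14.3 to 87.5), 45.1% in ILCP (40.9 to 53.7) and 94.0% in ILC2P (50 to 100). In ILC2P 7 of 8 libraries were above 50%, 4 of them at 100%, and the library at 50% held 2 counts in all. The CLP library at 100% held 4 counts in all. The share compares 1 pair of tags across libraries, and tag efficiency differs between genes, so the 50% mark is not equal amounts of the 2 transcripts. The summed counts behind the shares ranged from 2 to 201 per WT library.

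**Figure D2:**
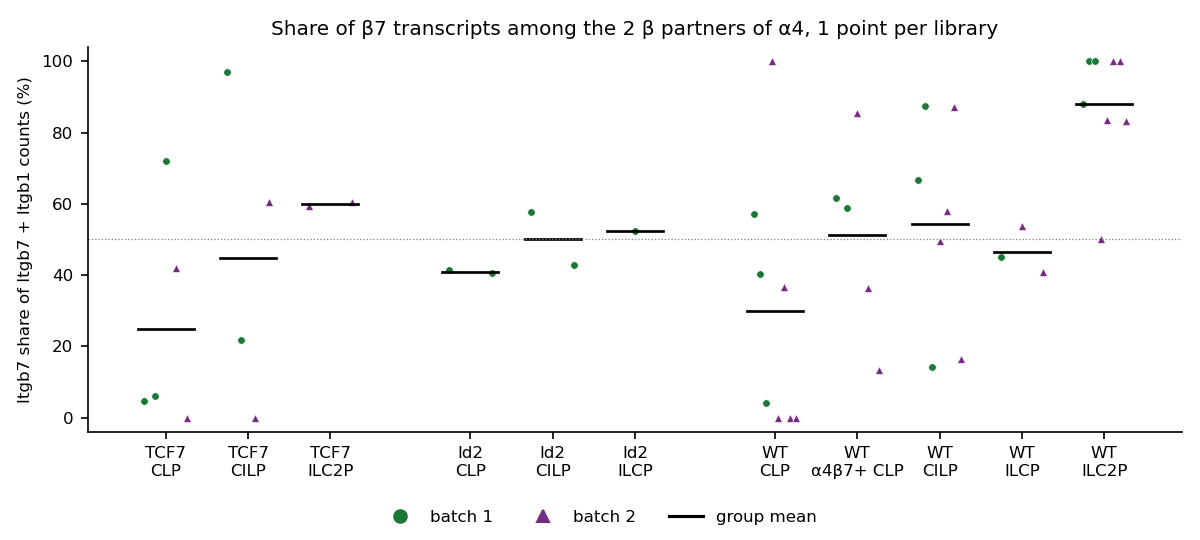
Itgb7 as a percentage of Itgb7 plus Itgb1 counts (vertical axis) in each TCF7-/-, Id2-/- and WT library, with circles for batch 1, triangles for batch 2 and the group mean as a line. The 2 TCF7-/- ILC2P libraries lie at 59.5 and 60.5%, against 50 to 100% in WT ILC2P.

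In the α4β7 CLP, sorted by the protein these genes encode, Itga4 held 390.3, 1167, 336.1, 817.1 and 669.4 CPM in the 5 libraries, against 127.3 to 618.6 CPM in CLP. Itgb7 held 318.2, 169.7, 16.4, 309.5 and 167.3 CPM, against 0 to 237.5 CPM in CLP. Replicate 3 was the lowest of the 5 for both genes, and both ranges overlapped with CLP. Neither difference was called, at log2 0.91 ± 0.43 for Itga4 (adjusted p = 0.624) and 1.96 ± 0.77 for Itgb7 (adjusted p = 0.453). No member was called in this comparison by edgeR or by DESeq2, against a background of 0.0456% of all genes, and 831 genes had an unadjusted p under 0.05. Myeloid markers summed to up to 9347 CPM in α4β7 CLP, against up to 899.3 CPM in CLP; their part in these levels was not tested.

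Itgae, the other partner of β7, was carried by single libraries in the WT groups. It was at 0 in 8 of 8 CLP libraries, in 4 of 5 α4β7 CLP, 6 of 7 CILP, 2 of 3 ILCP and 7 of 8 ILC2P libraries. The α4β7 CLP count came whole from replicate 3 (85 counts, 696.8 CPM), the library lowest for Itga4 and Itgb7, and the CILP count from replicate 3 (28 counts, 222.1 CPM). No pairwise comparison called it, with an adjusted p of 0.173 for α4β7 CLP and 0.0639 for CILP against CLP, although it was called in the test of any difference. Without the filter on low counts it was called in both of those comparisons (adjusted p = 0.00792 and 0.0185). In knockout CILP the counts were not held by 1 library. Itgae was counted in 3 of 4 TCF7-/- CILP libraries (10 counts, up to 71.1 CPM) and in both Id2-/- CILP libraries (12.3 and 45.2 CPM). Neither group was called against WT CILP by edgeR (adjusted p = 0.77 and 0.998). Itgae overlaps Haspin in the annotation, Itga4 overlaps Cerkl and Itgav overlaps Dnmt3l-ps1; the labels do not state whether counting used strand, so reads of the overlapping genes may not be told apart.

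Neither LFA-1 chain was called in a comparison over both batches; in batch 2 alone Itgb2 was called lower in ILC2P than in CLP (log2 difference -4.17, adjusted p = 0.0488). Itgal had its highest mean in CILP: 252 ± 121 CPM in CLP, 273 ± 209 in α4β7 CLP, 641 ± 229 in CILP, 348 ± 188 in ILCP and 302 ± 191 in ILC2P. CILP libraries held 329.2, 721.2 and 967.9 CPM (lowest, median, highest), against 77.1, 215.4 and 427.4 CPM in CLP, so the 2 ranges overlapped. The log2 difference was 1.34 ± 0.52 and was not called (adjusted p = 0.134). Itgb2 means were 158 ± 228, 94.6 ± 90.4, 132 ± 90.0, 177 ± 63.9 and 77.2 ± 103 CPM in CLP, α4β7 CLP, CILP, ILCP and ILC2P, with overlapping ranges. The CLP mean held 1 library at 699.6 CPM, and the ILC2P values split by batch, with 3 libraries of batch 1 between 124.1 and 284.5 CPM and 5 libraries of batch 2 at 26.7 CPM or less.

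Itgb3 separated CLP and α4β7 CLP from CILP, ILCP and ILC2P. It held 67.9 CPM in 1 CLP library and 0 in the other 7, and 0, 2.61, 16.4, 31.0 and 0 CPM in the 5 α4β7 CLP libraries. CILP libraries held 78.1, 166.6 and 323.6 CPM (lowest, median, highest), ILCP libraries 340.7, 218.1 and 201.9 CPM, and ILC2P libraries 87.7, 146.1 and 309.9 CPM. Every CILP, ILCP and ILC2P library used lay above every CLP and α4β7 CLP library. The WT CILP library that the labels call an outlier was left out. It held 63.71 CPM on its plain total (3 counts), below the CLP library at 67.9 CPM. Itgb3 rose in CILP over CLP by 4.61 ± 0.91 (adjusted p = 3e-04) and over α4β7 CLP by 4.31 ± 1.06 (adjusted p = 0.00919), and it rose in ILC2P over CLP by 4.52 ± 0.89 (adjusted p = 0.000154), on the log2 scale. Without CLP replicate 6, which held all 8 Itgb3 counts of CLP, the fitted differences were 7.65 in CILP and 7.63 in ILC2P over CLP (adjusted p = 1.92e-06 and 9.36e-07), and without α4β7 CLP replicate 4 the difference of CILP over α4β7 CLP was 5.11 (adjusted p = 0.0119). In batch 1 alone none of these was called: CILP over CLP was 2.58 (adjusted p = 0.331), CILP over α4β7 CLP 3.26 (0.34) and ILC2P over CLP 3.31 (0.0745). In batch 2 alone CILP over CLP was 7.91 (adjusted p = 0.000711) and ILC2P over CLP 7.49 (0.000996), while CILP over α4β7 CLP, at 4.94, was not called (0.165). No difference among CILP, ILCP and ILC2P was called: the adjusted p was 0.849 for ILC2P against ILCP, 0.886 for ILCP against CILP and 0.998 for ILC2P against CILP.

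Of the α partners of β3, Itga2b was called in CILP over CLP, as Itgb3 was, and in ILC2P over CILP, where Itgb3 was not; Itgav was called in no comparison. Itga2b was found in CILP: 6 of 7 libraries had counts, at 273.1, 156.1, 146.9, 87.3, 41.7 and 13.8 CPM, and replicate 7 had none. All 8 CLP and all 8 ILC2P libraries had 0 counts, where 3 counts over the group would be 2.69 CPM in CLP and 5.68 CPM in ILC2P. The CILP mean of Itga2b, 102.7 ± 96.8 CPM, was 38.2-fold above that floor in CLP and 18.1-fold above it in ILC2P. These folds leave out the spread of the CILP mean and are not lower bounds. The fitted log2 differences depend on the prior count. They were 6.86 ± 1.39 for CILP over CLP (edgeR adjusted p = 0.000581) and -6.92 ± 1.62 for ILC2P over CILP (adjusted p = 0.00521). DESeq2 did not call either (adjusted p = 0.0947 and 0.215), and in batch 2 alone neither was called (adjusted p = 0.084 and 0.131). It had 4 counts in 2 of 5 α4β7 CLP libraries and 6 counts in 1 of 3 ILCP libraries, and neither was called against CILP (adjusted p = 0.0717 for CILP over α4β7 CLP and 0.529 for ILCP against CILP). Beside it, 4 of 12 megakaryocyte and platelet markers had counts in CILP, with summed levels of 0 to 208.2 CPM, against 0 to 458.1 CPM in CLP, and Pf4, Ppbp, Gp1ba, Gp6, Vwf, Clec1b and Treml1 were among those at 0. Mast cell and basophil markers summed to 36.6 to 4500 CPM in CILP, with 7 of 9 genes counted and Ms4a2 and Tpsb2 at 0, against 0 to 41.7 CPM in CLP. Of these genes, Cpa3 had counts in 7 of 7 CILP libraries (median 286.3 CPM) and Mcpt8 in 2 of 7 (up to 3586 CPM). Gata2 had 12 counts in 3 libraries and Fcer1a 2 counts in 1. By library, replicate 5 had the highest marker sum and Itga2b level (sum 4500 CPM) and replicate 7 the lowest of both (sum 36.6 CPM). Replicate 4 had the next highest sum (640.4 CPM) with 2 Itga2b counts (13.8 CPM), and replicate 6 a sum of 223.8 CPM with Itga2b at 146.9 CPM. The part of such cells in the Itga2b level was not tested. Itgav means were 54.6 ± 90.3, 33.0 ± 47.2, 20.7 ± 27.5, 28.2 ± 29.7 and 116 ± 274 CPM from CLP through ILC2P, the last resting on ILC2P replicate 4 at 791.3 CPM. Itga6 was near the limit of detection, with summed counts of 3, 15, 8, 6 and 1 in the 5 populations in the same order.

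**Figure D3:**
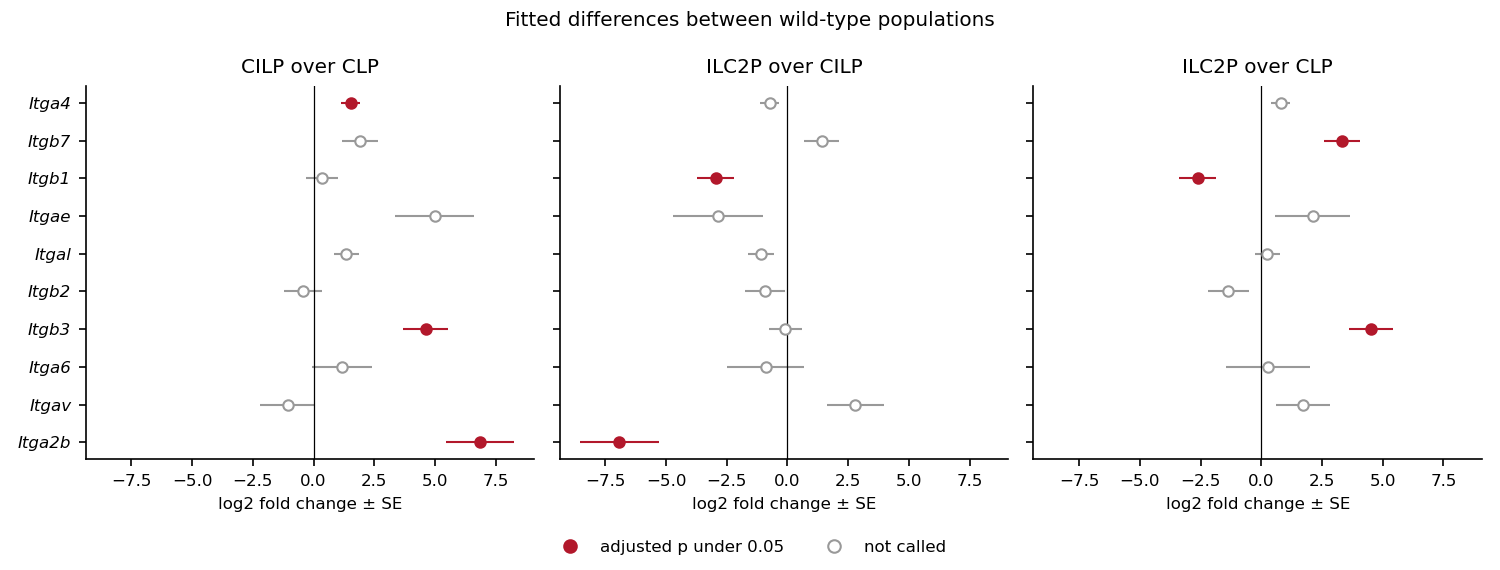
Fitted log2 differences of the 10 subunits (horizontal axes, bars are 1 SE) for CILP over CLP, ILC2P over CILP and ILC2P over CLP in WT libraries, with filled red points at an adjusted p under 0.05. Itga2b has no point for ILC2P over CLP, where both groups are at 0, and its other points depend on the prior count. Itga4, Itgb3 and Itga2b lie to the right for CILP over CLP, Itgb1 and Itga2b to the left for ILC2P over CILP, and Itgb7 and Itgb3 to the right and Itgb1 to the left for ILC2P over CLP.

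By counts, CILP over CLP called 3 of the 10 members, all higher, against a background of 4.31% of all genes in either direction. The median log2 difference of the 10 was 1.44, against 0.065 for all genes tested. CILP over α4β7 CLP called 1 member, higher, against 2.35%. ILCP over CILP called 0 members, against 0.374%, and DESeq2 called 0; 1181 genes had an unadjusted p under 0.05. ILC2P over CILP called 2 members, both lower, against 5.32%, with a member median of -0.91. ILC2P over ILCP called 1, lower, against 0.483%, and ILC2P over CLP called 3, of which 2 were higher and 1 lower, against 11.5%. The comparisons share libraries, so their counts are not independent of each other. The members were chosen with earlier results of these data known, so counts beside the background are a description. By order of mean level, the neighbouring populations of each subunit overlapped in range with 1 exception, Itgb3 in CILP above α4β7 CLP. The share of all genes with ranges apart was not taken for these populations.

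In the knockouts no member was called in any comparison by edgeR. TCF7-/- against WT called 0 members in CLP, where 0% of all genes were called and 713 had an unadjusted p under 0.05, 0 in CILP (background 0.501%, 1215 genes) and 0 in ILC2P (2.57%, 1650 genes). Id2-/- against WT called 0 members in CLP (0.0365%, 348 genes) and 0 in CILP (0.0911%, 687 genes). The difference of the CLP to CILP step between genotypes called 0 members for TCF7-/- (0.0456%, 996 genes) and 0 for Id2-/- (0.0365%, 528 genes). DESeq2 called 0 members in the TCF7-/- comparisons and in Id2-/- CLP, and called Itgb3 in Id2-/- CILP and in the Id2-/- step.

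Itgb3 was not called by edgeR in knockout CILP, although its values did not overlap with WT. Id2-/- CILP held 6.13 and 9.05 CPM and TCF7-/- CILP held 39.99, 31.7, 63.8 and 17.8 CPM, against 78.1 to 323.6 CPM in WT CILP. Every knockout CILP library lay below every WT CILP library used, with 3 Itgb3 counts over Id2-/- CILP and 18 over TCF7-/- CILP. The left-out WT CILP outlier, at 63.71 CPM on its plain total, lay below the highest TCF7-/- CILP library (63.82 CPM). The share of all genes with ranges apart was not taken for these groups, which also holds for Itga2b and Itgal below. The log2 difference from WT was -4.96 ± 1.66 in Id2-/- CILP (adjusted p = 0.304) and -2.29 ± 1.04 in TCF7-/- CILP (adjusted p = 0.388), and DESeq2 called it in Id2-/- (-5.00, adjusted p = 0.0182). Id2-/- CLP, in contrast, held 27.6 and 87.4 CPM, against 67.9 CPM in 1 and 0 in 7 of the 8 WT CLP libraries. The step from CLP to CILP differed by -7.40 ± 2.01 between Id2-/- and WT (adjusted p = 0.426 over all genes; DESeq2 -7.52, adjusted p = 0.00284), and without WT CLP replicate 6 by -10.44 (adjusted p = 0.0138). In TCF7-/- ILC2P Itgb3 held 153.7 and 727.9 CPM, against 87.7 to 309.9 CPM in WT ILC2P, and was not called (adjusted p = 0.426). The single Id2-/- ILCP library held 121.2 CPM, against 201.9 to 340.7 CPM in WT ILCP, with no test.

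Itga2b was counted in both Id2-/- CILP libraries at 275.8 and 524.6 CPM, against 0 to 273.1 CPM in WT CILP. Both lay above every WT CILP library, and the log2 difference of 1.71 ± 1.64 was not called (adjusted p = 1). TCF7-/- CILP held 0, 187.0, 0 and 106.7 CPM. The 2 Id2-/- CLP, 5 TCF7-/- CLP and 2 TCF7-/- ILC2P libraries had no count. In the same Id2-/- CILP libraries the mast cell and basophil markers summed to 6686 and 3912 CPM with 8 of 9 genes counted and Tpsb2 at 0, the megakaryocyte and platelet markers to 42.9 and 361.8 CPM with 8 of 12 counted and Ppbp, Gp6, Vwf and Clec1b at 0, and erythroid markers to between 2031 and 2237 CPM, against 0 to 795.5 CPM in WT CILP. Gata2, a regulator of mast cells and of early haematopoiesis, held 612.8 and 719.1 CPM, against 0 to 71.2 CPM in WT CILP. In TCF7-/- CILP the mast cell and basophil markers summed to 195.6 to 2906 CPM and Gata2 held 12.8 to 999.8 CPM. Erythroid markers summed there to 242.5 to 30750 CPM (median 6822), against a median of 174.5 CPM in WT CILP, and myeloid markers to 0 to 10280 CPM (median 5580), against a median of 230.5 CPM. In Id2-/- CILP Gata3, a regulator of ILC development, held 98.1 and 135.7 CPM and Zbtb16 held 22.6 and 55.2 CPM, against 912.3 to 4180 and 185.9 to 524.5 CPM in WT CILP, beside the CILP marker sums given above. The part of such cells, and of the lower CILP marker level, in the knockout CILP values of Itga2b, Itgb3 and Itgal was not tested.

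**Figure D4:**
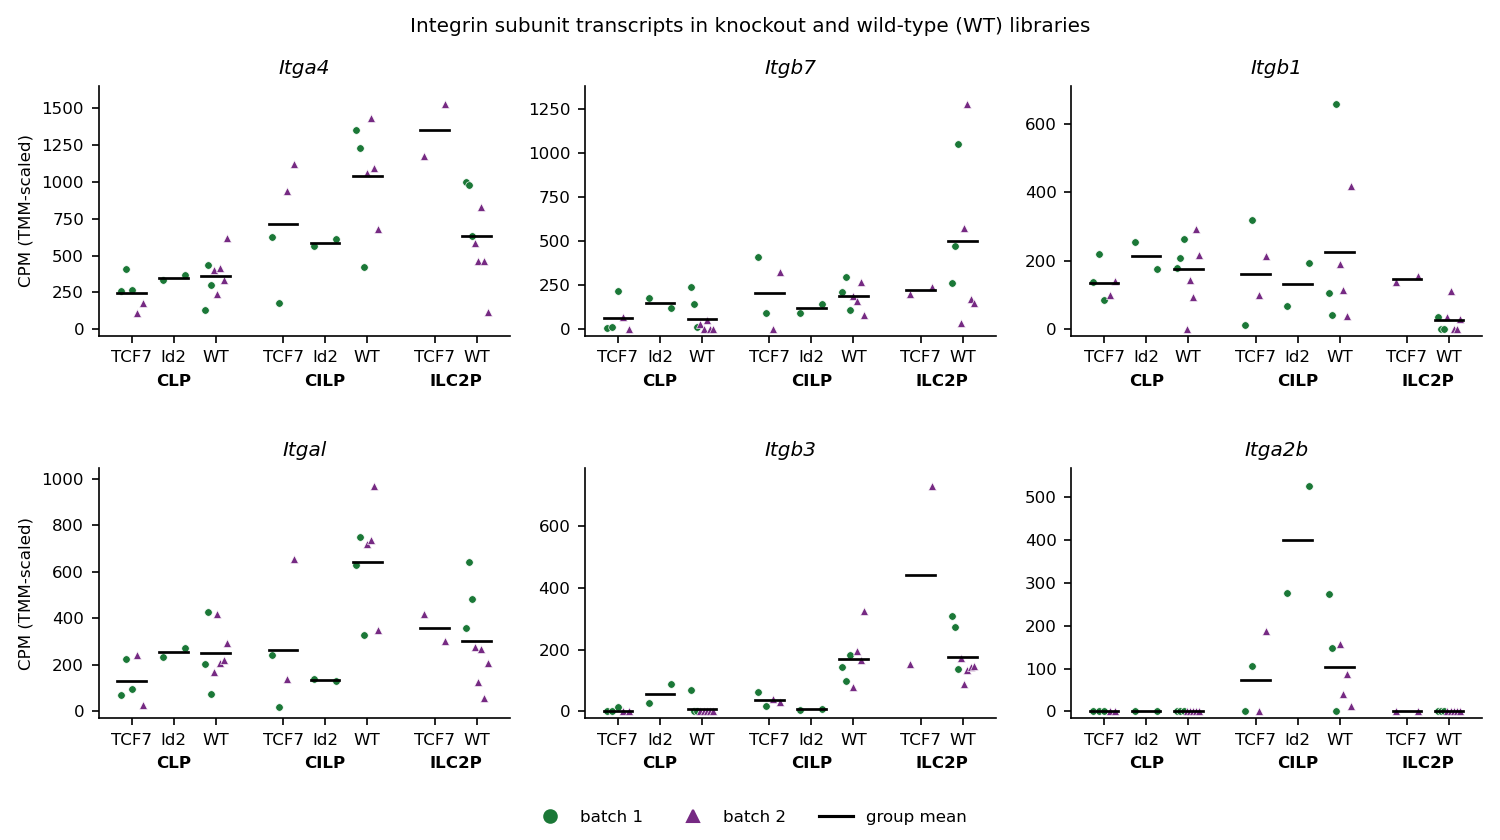
CPM (vertical axes, linear) of 6 subunits in TCF7-/-, Id2-/- and WT libraries of CLP, CILP and ILC2P, with circles for batch 1, triangles for batch 2 and the group mean as a line. Itgb3 lies at 6.13 to 63.8 CPM in knockout CILP and 78.1 to 323.6 CPM in WT CILP, and Itga2b at 275.8 and 524.6 CPM in Id2-/- CILP and 0 to 273.1 CPM in WT CILP; neither difference was called by edgeR.

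For α4 and αL no knockout difference was called. Itga4 held 563.8 and 610.5 CPM in Id2-/- CILP and 177.9 to 1122 CPM in TCF7-/- CILP, against 420.7 to 1433 CPM in WT CILP, and the ranges overlapped. Itgal held 140.9 and 131.2 CPM in Id2-/- CILP, against 329.2 to 967.9 CPM in WT CILP; both libraries lay below every WT library, and the log2 difference of -2.27 ± 0.96 was not called (adjusted p = 0.624). In TCF7-/- CILP Itgal held 17.8 to 656.1 CPM and the ranges overlapped. In TCF7-/- ILC2P Itgb1 held 137.5 and 155.3 CPM, against 0 to 112.8 CPM in WT ILC2P, with a log2 difference of 2.40 ± 0.99 that was not called (adjusted p = 0.213). Itga4 held 1173 and 1529 CPM there, against 118.6 to 1001 CPM in WT ILC2P (log2 difference 1.13 ± 0.58, adjusted p = 0.343). The 2 TCF7-/- ILC2P libraries differed in other markers, with B and plasma cell markers at 411200 CPM in replicate 1 and 1048 CPM in replicate 2. Mature T cell markers lay at 687.6 and 9055 CPM. The part of such cells was not tested. The TMM factors of these libraries were 0.4949 and 0.8366, against 1.047 to 1.552 in WT ILC2P. A lower factor raises the CPM of every gene and marker of a library. Levels on plain totals were not compared. The Id2-/- ILCP library held 708.7 CPM of Itga4 and 130.6 CPM of Itgae, against 1422 to 1580 CPM and 0 to 74.1 CPM in WT ILCP. Itga6 held 110.3 and 31.7 CPM in Id2-/- CILP, against 0 to 47.5 CPM in WT CILP (adjusted p = 0.957). In TCF7-/- ILC2P Itgb2 held 210.3 and 296.0 CPM, against 0 to 284.5 CPM in WT ILC2P (adjusted p = 0.373).

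Other genes of the pathway were read in 4 lists. Of 17 other integrin subunits 4 were tested, and Itgax, the CD11c chain of dendritic and myeloid cells, was lower in CILP than in CLP (1.59 ± 4.22 against 84.8 ± 78.0 CPM, adjusted p = 0.0133) and lower in ILC2P than in CLP (0 against 84.8 CPM, adjusted p = 0.00215). Dendritic cell markers summed to 269.7 to 839.2 CPM in CILP, against 473.7 to 8494 CPM in CLP. Of 31 activators and adaptors 26 were tested: in CILP against CLP 1 was higher and 1 lower, where 4.31% of all genes were called, and in ILC2P against CLP 2 were higher and 3 lower, where 11.5% were called. The median log2 difference of these 26 was 0.08 in CILP against CLP, beside 0.065 for all genes, and -0.39 in ILC2P against CLP, beside -0.431 for all genes.

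Skap1, a T cell adaptor that links the antigen receptor to integrin activation, was at 0 in all CLP libraries and averaged 99.2 ± 63.2 CPM in CILP (adjusted p = 3.58e-05) and 224 ± 161 CPM in ILC2P (adjusted p = 4.96e-07). In TCF7-/- CILP Skap1 had no count, against 99.2 ± 63.2 CPM in WT CILP (adjusted p = 0.0491). It was the 1 gene of these 26 called there, where 0.501% of all genes were called. The part of the lower CILP marker level and of other cells in TCF7-/- CILP, given above, was not tested for Skap1. Rasgrp2, the exchange factor that activates RAP1, averaged 5.47 ± 5.57 CPM in CILP, against 89.9 ± 72.2 CPM in CLP (adjusted p = 0.0227). Cd47, the integrin-associated protein, averaged 209 ± 101 CPM in ILC2P, against 905 ± 328 CPM in CLP (adjusted p = 0.000134), and Skap2, the related myeloid adaptor, 8.53 ± 16.5 CPM, against 111 ± 123 CPM (adjusted p = 0.0198).

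Of 17 integrin ligands 5 were tested, and Vcam1, the ligand of α4β1, was called in ILCP over CILP (42.8 ± 74.1 against 0 CPM, adjusted p = 0.0446) and in TCF7-/- over WT ILC2P (97.1 ± 137 against 1.49 ± 4.22 CPM, adjusted p = 0.039), in both with an SD above the mean. Of 12 homing receptors 11 were tested, and 6 were called in ILC2P against CLP, 3 higher and 3 lower, with a median log2 difference of -0.56, beside 11.5% called and a median of -0.431 for all genes. Ccr9, the chemokine receptor for gut homing that acts with α4β7, averaged 955 ± 475 CPM in ILC2P, against 61.7 ± 54.7 CPM in CILP (adjusted p = 0.000967) and 92.9 ± 105 CPM in CLP (adjusted p = 0.000579). Cxcr6, a chemokine receptor of ILC progenitors, averaged 67.8 ± 35.2 CPM in CILP, against 0 in CLP (adjusted p = 3.48e-06), and Ccr2 averaged 748 ± 346 CPM, against 4.82 ± 5.27 CPM (adjusted p = 1.28e-12). In Id2-/- CILP Ccr2 had no count, against 748 ± 346 CPM in WT CILP (adjusted p = 0.000516), where 0.0911% of all genes were called. The part of the lower CILP marker level and of other cells in Id2-/- CILP was not tested for Ccr2.

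The genes whose log2(CPM + 1) ran most like each subunit over the 47 libraries were named by the highest Pearson correlation among 4399 genes, as a description that also carries population, batch and depth. For Itgb3 they were Cxcr6 (0.79), Camk4 (0.771) and Ikzf3 (0.767). For Itga4 they were Lcp2 (0.673), Gimap8 (0.631) and Arl4c (0.619), for Itgb7 Ncoa1 (0.688), Galnt12 (0.653) and Rasa2 (0.617), and for Itgb1 Cox5a (0.675), Myb (0.661) and Sdcbp (0.651). Itgal ran most like Vezf1 (0.651), Rinl (0.588) and Smap1 (0.584), Itgb2 most like Nfe2l1 (0.671), Rara (0.619) and Dcaf10 (0.616), and Itgav most like Pdcd11 (0.625), Suds3 (0.584) and Ubxn1 (0.579). Itgae, Itga6 and Itga2b averaged under 50 CPM and were left out. Among the members the highest values were 0.585 for Itgb7 with Itgb3, 0.537 for Itga4 with Itgal and 0.521 for Itga4 with Itgb3, and Itgb7 with Itgb1 gave -0.292.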

How the data were processed

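RNA from sorted pools of 100 bone marrow cells was measured by CEL-seq, and the values used are the gene counts the authors deposited, whole numbers that were not normalized. Per the submitters' processing notes, the processing named CASAVA 1.8.2, featureCounts, edgeR (versions 3.8.2 and 3.22.0), limma and the mm10 build; the aligner, the strand setting and any use of molecular identifiers are not given in the sources used here, so intervals and floors cover counting error only. Of 27179 gene IDs in the tables, 25275 (92.99%) were matched to a RefSeq symbol, and 0 value columns lacked a sample.

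The labels list 70 samples. Adding 4 technical repeats to their parent libraries left 66 libraries, of which 47 entered the model (31 WT, with total counts of 19322 to 624668). The 12 control wells, 6 Nfil libraries and 1 library that the labels call an outlier were left out. Replicates were numbered in accession order, so the numbers pair nothing. Genes with at least 10 counts in enough libraries and 15 in total were kept with edgeR's filter (10972 genes). Counts were scaled by TMM and tested with edgeR 4.0.16 (limma 3.58.1, R 4.3.3) by the robust quasi-likelihood test, with a mean per group and a batch term (35 residual degrees of freedom, biological coefficient of variation 109.7%), adjusted by Benjamini-Hochberg over all genes tested and called under 0.05. Fold changes used a prior count of 0.125, and an SE is the log2 difference divided by the square root of F. CPM are counts scaled to a common library total after TMM. Where a group had 0 counts, the other group's mean was divided by the CPM of 3 counts over the group, without the spread of that mean. The steps were tested on simulated data with known changes.

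The alternatives were DESeq2 1.42.0, DESeq2's size factors in edgeR, every counted gene tested, the batch term dropped, either batch alone, the outlier put back, shallow libraries left out, parent libraries without their repeats, and each library left out in turn. Python 3.11.15 with pandas 2.3.3, scipy 1.17.1 and matplotlib 3.10.9 made the summaries and figures. The members, the lists of pathway and marker genes and the tests were chosen with earlier results of these data known. All 10 members are named; of a pathway list, up to 4 called genes with the smallest adjusted p per comparison could be named; genes of like pattern are the 3 with the highest Pearson correlation among genes with a mean of at least 50 CPM.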

Additional observations from a re-analysis of the deposited data

Results flagged for a closer look

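The members' levels were searched in 55 groups of 4 to 10 libraries for a single library far from the others, and 15 were found. Chance gives about 1 in 20 groups for normally distributed values, a rate that need not hold for CPM. It does not hold for genes mostly at 0, where 1 library with any count stands apart by construction. The number found is therefore not compared with that rate. Itgb1 held 112.8 CPM in WT ILC2P replicate 2, with the next library at 35.8 CPM. Itgae stood alone at 696.8 CPM in WT α4β7 CLP replicate 3 (85 counts), at 222.1 CPM in WT CILP replicate 3 (28 counts) and at 11.9 CPM in WT ILC2P replicate 6 (1 count), with 0 in the other libraries of each group. Itgb2 held 699.6 CPM in WT CLP replicate 3 (143 counts), with the next at 183.9 CPM.

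Itgb3 held 67.9 CPM in WT CLP replicate 6 (8 counts) and 14.9 CPM in TCF7-/- CLP replicate 5 (3 counts), where the other libraries had none. Itga6 held 25.5 CPM in WT CLP replicate 6, 47.5 CPM in WT CILP replicate 5, 26.7 CPM in WT ILC2P replicate 3 and 177.9 CPM in TCF7-/- CILP replicate 4, from 3, 4, 1 and 10 counts. Itgav held 264.4 CPM in WT CLP replicate 8 (24 counts), 791.3 CPM in WT ILC2P replicate 4 (55 counts) and 195.6 CPM in TCF7-/- CILP replicate 4 (11 counts). Itga2b held 18.6 CPM in WT α4β7 CLP replicate 4 (3 counts).

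Libraries outside the comparisons also held signal above the counts pooled over the control wells. The Nfil libraries are described by the submitters as knockouts that did not succeed and enter no comparison. Itga4 reached 354.3 CPM in Nfil CLP, 968.8 CPM in Nfil ILC2P and 552.1 CPM in the WT CILP library called an outlier, against 42.7 CPM in control wells. Itgal reached 361.2 CPM in Nfil CLP, 270.7 CPM in Nfil ILC2P and 530.9 CPM in the outlier, against 0 in control wells. Itgb1 held 1024 CPM over the Nfil CILP libraries, against 256.2 CPM over the control wells, but 1 control well of 2458 counts held 1627 CPM from 4 counts, above either Nfil CILP library. Itgav held 307.3 CPM in Nfil CILP, against 0. Of the 2 Nfil CILP libraries, 1 had 296 counts in all and no count of either gene.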

How the results depend on the processing

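Of 131 counts of called members under another setting, 113 stayed within 1.5 times the reported count, as did 208 of 219 with 1 library left out. These include counts of 0 that stayed 0, so they do not measure how stable the calls are. No direction was reversed among 108 fold changes under another setting or 172 with 1 library left out. Those were followed only for called members and for Itga4 and Itgb7 in α4β7 CLP against CLP. With DESeq2 the count was 1 for ILC2P over CILP, 0 for ILC2P over ILCP, 1 for Id2-/- CILP and 1 for the Id2-/- step. ILC2P over ILCP also gave 0 with DESeq2's size factors, with no batch term, in batch 1 alone, in batch 2 alone, with the outlier put back, with shallow libraries left out and with parent libraries alone. Without the filter on low counts, α4β7 CLP over CLP gave 1 (Itgae). In batch 1 alone CILP over α4β7 CLP gave 0 and the test of any WT difference gave 3. In batch 2 alone CILP over CLP gave 1, CILP over α4β7 CLP 0, ILC2P over CILP 0 and the test of any WT difference 3. With 1 library left out, the count ranged from 0 to 1 for ILC2P over ILCP, from 1 to 2 for ILC2P over CILP, from 1 to 2 for CILP over α4β7 CLP and from 0 to 1 for the Id2-/- step. With DESeq2's size factors the median log2 difference of all genes was -0.234 for ILC2P over CILP and -0.178 for ILC2P over CLP, against -0.553 and -0.431 as reported. The cause was not tested. No paired analysis was possible because the replicate numbers were given in accession order and pair no libraries. Depth limits Itgae, Itga6 and Itga2b most, whose group sums were often under 10 counts.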
